A study of Mus musculus with 18 samples.

Results

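The mitochondrial carriers of the Slc25 family were followed across wild type, ERalphaKO and ERbetaKO mouse brain. The members were the genes whose probe sets carry a single platform symbol beginning with Slc25a. Where a gene had several probe sets, the probe set with the highest mean over all 18 arrays stood for it. This rule found 44 genes, from 93 probe sets, among the 18193 genes on the array, and 39 of them passed the filter on low signal and were tested.

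RNA of flash-frozen whole brain from C57BL/6 mice aged 8 weeks was hybridised to Affymetrix Mouse 430 2.0 arrays. Each genotype had 6 arrays, 3 labelled female and 3 labelled male. All were on the C57BL/6 strain with no treatment named, and the labels do not describe how either allele was made. Sample numbers are given, but separate animals are not stated, and the tests below therefore weigh differences against sample-to-sample spread that may be technical. The Esr2 probe set gave a signal of 19.8 to 50.8 in wild type and 160.4 to 407 in the arrays labelled ERbetaKO, so that it ran against the label. None of the 3 Esr1 probe sets separated ERalphaKO below wild type: the signal of 1421244_at was 93.3 to 185 in wild type and 86.8 to 145 in ERalphaKO. The means of the other two were higher in ERalphaKO, at 230 ± 52.3 (SD) against 141 ± 50.6 in wild type for 1460591_at and 65.0 ± 20.6 against 38.6 ± 16.4 for 1435663_at. The groups below are therefore the arrays labelled ERalphaKO and labelled ERbetaKO, every direction rests on those labels, and the location of these probes relative to the disrupted exons was not tested.

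Carriers of the Slc25 family are small proteins of the mitochondrial inner membrane, each built from repeats of a motif that spans the membrane in pairs. They exchange nucleotides, phosphate, carboxylates, amino acids, cofactors and metals between the cytosol and the matrix. In brain they feed oxidative phosphorylation with ADP and phosphate, move reducing equivalents through the malate-aspartate shuttle, and take glutamate into the matrix. Most are made in the cytosol and inserted by the TIM22 complex.

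The table of mouse promoters held entries for 34 of the 44 genes, and the remaining 10, Slc25a27 among them, had none. The 250 bases before the transcription start are shown for the 3 members with a call that held in 26 or 27 of 27 alternatives. These calls were Slc25a18 and Slc25a39, lower in ERbetaKO than in wild type, and Slc25a45, lower in ERalphaKO than in ERbetaKO. Their calls in ERalphaKO against wild type held in fewer: 22 of 27 for Slc25a18, 14 for Slc25a39 and 23 for Slc25a45. The sequences are from RefSeq (GRCm38.p6), written 5′ to 3′ on the gene's strand, and capitals mark GGTCA on either strand, the arm of which the estrogen response element GGTCANNNTGACC is made. The windows are chr6:120773518-120773767 on the plus strand, chr11:102407518-102407767 on the minus strand and chr19:5877572-5877821 on the plus strand.
Slc25a18: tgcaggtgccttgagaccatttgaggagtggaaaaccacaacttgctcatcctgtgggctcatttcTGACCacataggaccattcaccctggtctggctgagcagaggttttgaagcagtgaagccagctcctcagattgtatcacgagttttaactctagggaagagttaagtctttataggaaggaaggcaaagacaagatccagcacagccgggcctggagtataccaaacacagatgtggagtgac
Slc25a39: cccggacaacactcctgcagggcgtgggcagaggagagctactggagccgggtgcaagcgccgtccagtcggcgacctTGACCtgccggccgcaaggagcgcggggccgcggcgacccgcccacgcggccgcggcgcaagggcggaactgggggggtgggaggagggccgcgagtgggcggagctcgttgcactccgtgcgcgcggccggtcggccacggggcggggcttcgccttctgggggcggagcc
Slc25a45: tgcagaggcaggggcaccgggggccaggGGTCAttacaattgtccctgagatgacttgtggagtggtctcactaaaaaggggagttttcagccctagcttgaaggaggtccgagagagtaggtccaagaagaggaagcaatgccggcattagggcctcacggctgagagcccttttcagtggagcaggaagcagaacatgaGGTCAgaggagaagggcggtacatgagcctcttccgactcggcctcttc

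The Slc25a39 window was 77.2% G and C and held 5 copies of the GC box GGGCGG, read on both strands, against 0 copies and 48.8% in the Slc25a18 window and 1 copy and 56.4% in the Slc25a45 window. The Slc25a18 and Slc25a39 windows each held 1 copy of GGTCA and the Slc25a45 window 2. Over the 43 promoters of the matched members, 17 (39.5%) held GGTCA, and 35.2% of all 32851 promoters in the table did. None of the 43 held the whole element, which 0.0639% of all promoters did. The GC box stood in 32 of the 43 (74.4%) and in 32.7% of all promoters. A match describes the letters of a window and is not a binding site.

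Array signals are the deposited MAS5 values, brightness in linear units scaled to a trimmed mean of 500.002 on each array. Differences are on the log2(signal + 63.6) scale, which understates changes of dim genes, and a gene was called when its adjusted p in limma was under 0.05 over all 13072 genes tested. Signals of different probe sets cannot be set against each other as levels of RNA.

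Against wild type, 4 of the 39 tested carriers fell in ERalphaKO and none rose. Over all genes tested, 3.63% were called lower and 3.07% higher in this comparison. The median difference was -0.13 over the carriers and -0.03 over all genes, and 12 of the 39 carriers lay above 0 (30.8%), against 43.9% of all genes. In ERbetaKO, 2 carriers fell and 2 rose, where 4.58% of all genes were called lower and 2.91% higher; the carriers' median was -0.05 and that of all genes 0.01. Slc25a18 and Slc25a39 were called lower in both comparisons, which share the wild type arrays. Between the knockout labels, 5 carriers were lower in ERalphaKO than in ERbetaKO and none higher, with 9.11% of all genes called lower and 6.27% higher and medians of -0.04 and -0.02. With arrays scaled to their median, which put the median of all genes at -0.12 in ERbetaKO, 6 carriers were called lower and none higher in ERbetaKO, and 2 lower and 1 higher between the knockout labels. Of all 13074 genes tested with this scaling, 1873 were called in either direction in ERbetaKO and 2426 between the knockout labels. In all, 9 carriers were called in at least 1 of the 3 comparisons and 30 in none.

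**Figure D1:**
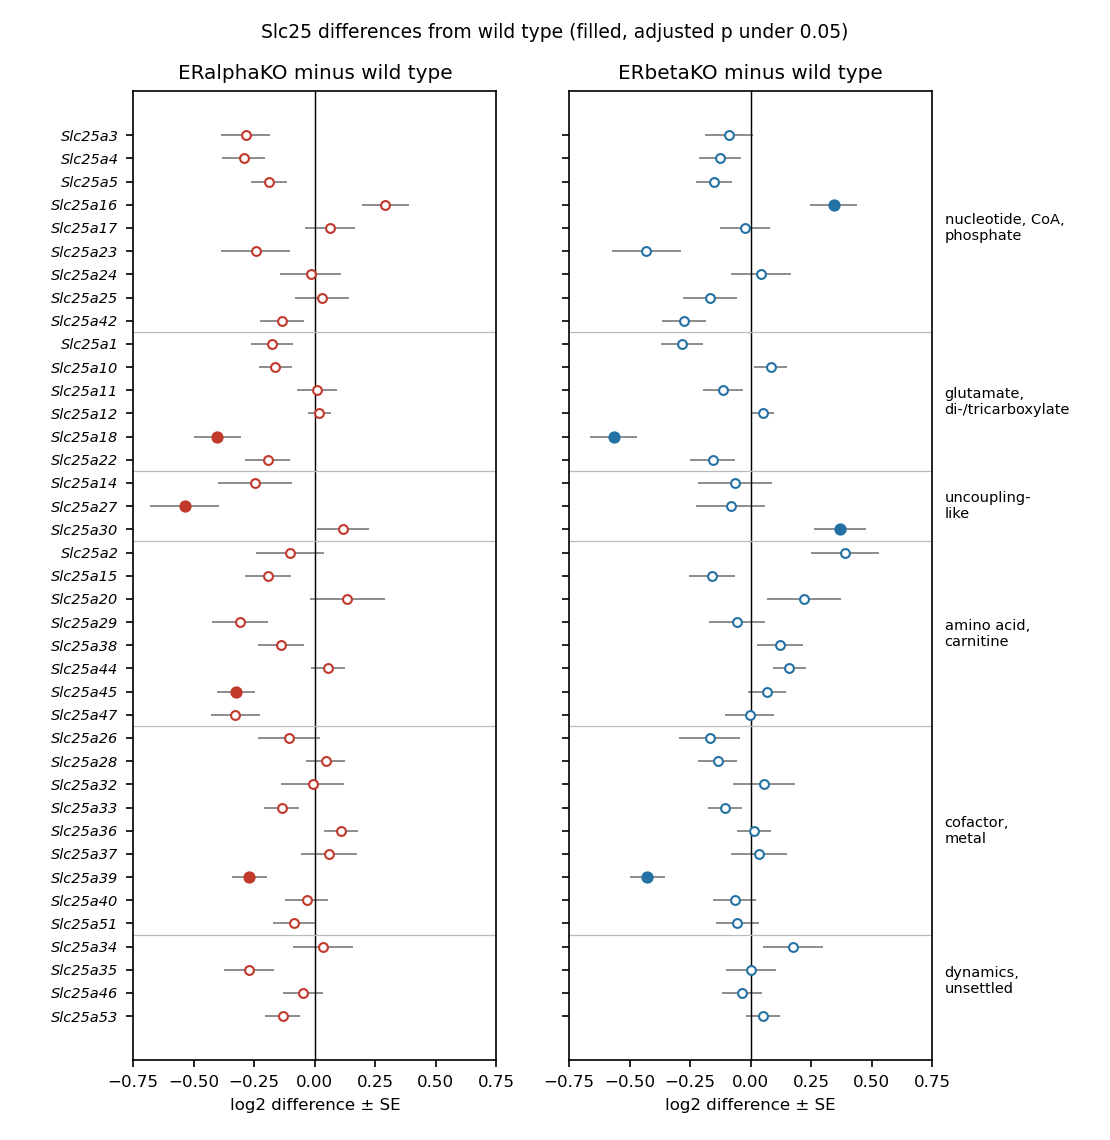
Differences of each tested Slc25 gene from wild type, in log2 units with the standard error, grouped by role, for ERalphaKO (left) and ERbetaKO (right) against 6 wild type arrays each. Filled points passed an adjusted p of 0.05: 4 carriers, all below 0, in ERalphaKO and 4, of which 2 lay above 0, in ERbetaKO.

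The signals of 4 carriers did not overlap between ERalphaKO and wild type, all lower in ERalphaKO: Slc25a4, Slc25a18, Slc25a27 and Slc25a45. Of all genes, 4.65% were apart in this way in either direction. Between ERbetaKO and wild type 3 carriers were apart, Slc25a30 above and Slc25a18 and Slc25a39 below, against 4.06% of all genes. Between ERalphaKO and ERbetaKO the single carrier apart was Slc25a45, against 5.85% of all genes.

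**Figure D2:**
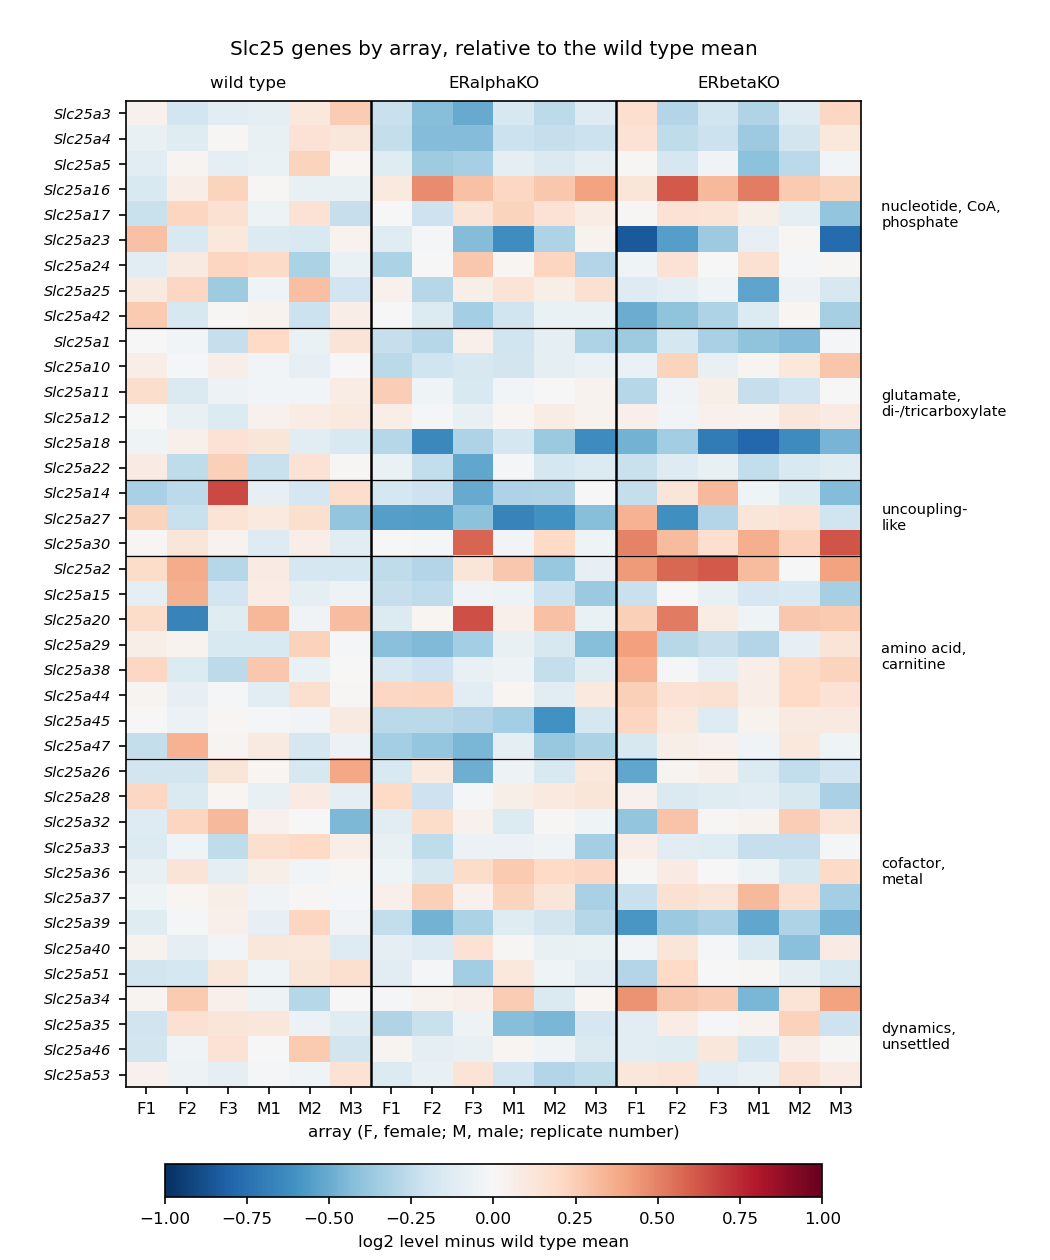
Log2 level of the 39 tested Slc25 genes on each of the 18 arrays minus the gene's wild type mean, with genes in rows by role and arrays in columns by genotype, sex and replicate; red is higher and blue lower. Slc25a18 and Slc25a39 are blue on all ERalphaKO and ERbetaKO arrays, and Slc25a45 on all 6 ERalphaKO arrays.

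Carriers of aspartate, glutamate, dicarboxylates and tricarboxylates had 7 members, of which 6 were tested. In ERalphaKO 1 fell and 5 were not called (median -0.17), and in ERbetaKO again 1 fell and 5 were not called (median -0.14). The member that fell in both was Slc25a18, a glutamate carrier known mainly from astrocytes. Its signal (probe set 1428964_at) was 1387 at the lowest, 1556 at the median and 1724 at the highest in wild type, 969, 1211 and 1369 in ERalphaKO, and 874, 1039.6 and 1208 in ERbetaKO. Every knockout-labelled array lay below every wild type array. The difference was -0.40 ± 0.10 (SE, 6 arrays a genotype, adjusted p = 0.0229) in ERalphaKO and -0.57 ± 0.10 (adjusted p = 0.0036) in ERbetaKO, with both sexes lower in each: -0.46 in females and -0.34 in males of ERalphaKO, -0.56 and -0.58 in ERbetaKO. The ERbetaKO call held in 27 of 27 alternatives. The ERalphaKO call was lost without wild type female replicate 3, wild type male replicate 1, ERalphaKO female replicate 2 or ERalphaKO male replicate 2, and on the arrays with a signal of 500 or more for Pcp2, a cerebellar marker (-0.29).

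Of 7 astrocyte markers, 1 was called lower in each knockout comparison, a different gene each time (medians -0.19 in ERalphaKO and -0.27 in ERbetaKO). The summed signal of 7 astrocyte markers was 43301 to 49796 in wild type, 34544 to 42899.5 in ERalphaKO and 33409.6 to 48592 in ERbetaKO, so that the ERalphaKO arrays lay below wild type and the ERbetaKO arrays overlapped it. Aldoc fell in ERalphaKO (-0.49, adjusted p = 0.0251) and Gfap in ERbetaKO (-1.23, adjusted p = 0.000184). Slc1a3, an astrocyte glutamate transporter picked by hand from the 7, differed by 0.01 and -0.03 and was not called. The part of these markers in the result was not tested, and in whole tissue fewer cells of a type and less RNA per cell cannot be told apart.

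Slc25a22, the glutamate carrier related to Slc25a18 and known from neurons, was not called. Its signal ran from 3914 to 5527 (median 4822) in wild type, 3230.0 to 4603 (median 4182) in ERalphaKO and 3932 to 4430.0 (median 4221) in ERbetaKO. All 3 ranges overlapped, and the differences were -0.19 ± 0.09 (adjusted p = 0.219) and -0.16 ± 0.09 (adjusted p = 0.302). Slc25a12, the aspartate-glutamate exchanger of the malate-aspartate shuttle, varied little: 2689.8 to 3172 in wild type (median 3005), 2814 to 3123 in ERalphaKO (median 3023) and 2916 to 3211 in ERbetaKO (median 3065). Its differences were 0.02 ± 0.05 and 0.05 ± 0.05, neither called; the sign turned to -0.0045 in ERalphaKO with all probe sets averaged, and to -0.08 in ERbetaKO with arrays scaled to their median.

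Slc25a10, which exchanges malate and succinate for phosphate, separated the knockout labels. Its signal was 677, 718 and 757 (lowest, median, highest) in wild type, 587, 633 and 685 in ERalphaKO, and 683, 759 and 887 in ERbetaKO. The highest ERalphaKO array lay just above the lowest ERbetaKO array. ERalphaKO was lower than ERbetaKO, with a difference of -0.25 ± 0.07 (adjusted p = 0.0240), and neither was called against wild type (-0.16 and 0.08). The call was lost without ERalphaKO female replicate 1, ERalphaKO male replicate 1, ERbetaKO female replicate 2 or ERbetaKO male replicate 3, with median scaling (-0.14), on the arrays with a Pcp2 signal of 500 or more (-0.24), with the 3′/5′ signal ratio of Actb, a sign of RNA quality, in the model (-0.11), and with the gene's 2 probe sets averaged (-0.01): the second, 1416955_at, was lower in ERbetaKO than in wild type (-0.42 ± 0.14, unadjusted p = 0.0071). Slc25a1, the citrate carrier, gave -0.28 ± 0.09 in ERbetaKO and just missed the threshold (adjusted p = 0.0577).

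Carriers of adenine nucleotides, coenzyme A and phosphate had 11 members, 9 of them tested. None was called in ERalphaKO (6 of 9 below 0, median -0.14), and 1 rose in ERbetaKO (7 of 9 below 0, median -0.13). The riser was Slc25a16, linked to the supply of coenzyme A in the matrix. Its signal was 523, 575 and 696 in wild type, 632, 729 and 840.5 in ERalphaKO, and 646, 734 and 935 in ERbetaKO. Both knockout-labelled groups were shifted up and overlapped the highest wild type arrays. The difference was 0.34 ± 0.10 (adjusted p = 0.0410) in ERbetaKO and 0.29 ± 0.10 (adjusted p = 0.0777, not called) in ERalphaKO. The ERbetaKO call was lost in 9 of 12 fits without a single array, all but those without wild type female replicate 3, ERbetaKO female replicate 1 or ERbetaKO male replicate 3, and was also lost with median scaling (0.22), with no filter, with only the groups compared, on the arrays with a Pcp2 signal of 500 or more (0.22) and with the Actb ratio in the model (0.12).

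The 3 carriers that serve ATP synthesis most directly were not called. Slc25a4, the adenine nucleotide translocator of heart, muscle and brain, gave signals of 11132, 11868 and 13371 in wild type, 8961, 10276 and 10428 in ERalphaKO, and 9396, 10544 and 13388 in ERbetaKO. All ERalphaKO arrays lay below all wild type arrays, and the ERbetaKO arrays spanned the wild type range. Its difference in ERalphaKO was -0.29 ± 0.09, just short of the threshold (adjusted p = 0.0539). It passed in 5 of 27 alternatives (filter at the 60th percentile, all probe sets, array weights, the cerebellar score as a covariate, only the groups compared; lowest adjusted p = 0.0206) and shrank to -0.03 under quantile normalization; the 3 other probe sets gave -0.19, -0.11 and -0.03.

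Slc25a3, the phosphate carrier, gave 11559, 13024 and 15765 in wild type, 9286, 11152 and 12068 in ERalphaKO, and 10731, 11825 and 15275 in ERbetaKO. Its difference in ERalphaKO was -0.28 ± 0.10 (adjusted p = 0.0964), but its sign turned to 0.024 under quantile normalization and to 0.018 with both its probe sets averaged. Slc25a5, the translocator of proliferating and many other cells, gave 6869.8, 7284 and 8655 in wild type, 5781, 6765 and 6947 in ERalphaKO, and 5566, 6905 and 7466 in ERbetaKO. The differences were -0.19 ± 0.08 (adjusted p = 0.134) and -0.15 ± 0.08 (adjusted p = 0.220), and the ranges overlapped by little in ERalphaKO.

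Among the calcium-regulated carriers that exchange ATP-Mg for phosphate, Slc25a23 showed the second largest difference of any tested carrier in ERbetaKO without passing the test. Its signal was 3298, 3549 and 4497 in wild type, 2359, 3162 and 3758 in ERalphaKO, and 2027, 2657 and 3705 in ERbetaKO. The ERbetaKO arrays were spread widely, and the difference was -0.43 ± 0.14 (adjusted p = 0.0726). It was called with median scaling (-0.57, adjusted p = 0.0259) and with a score of cerebellar markers in the model (-0.51, adjusted p = 0.0175), and in none of the other 25 alternatives. Slc25a25 of the same subgroup gave 793, 1052 and 1285 in wild type, 836, 1081 and 1159 in ERalphaKO and 699, 955 and 999 in ERbetaKO, with differences of 0.03 ± 0.11 and -0.17 ± 0.11, neither called; the sign turned to -0.06 in ERalphaKO on the arrays with a Pcp2 signal of 500 or more, and to 0.17 in ERbetaKO with all its probe sets averaged. Slc25a42, which carries coenzyme A, was not called either (-0.28 in ERbetaKO, adjusted p = 0.0714).

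The uncoupling protein-like carriers, Slc25a14, Slc25a27 and Slc25a30, were all tested. In ERalphaKO Slc25a27 fell and in ERbetaKO Slc25a30 rose. Slc25a27, also named Ucp4 and known as a neuronal carrier, gave 634, 931 and 1003 in wild type, 512, 559.6 and 624 in ERalphaKO, and 536, 832 and 1101 in ERbetaKO. The 6 ERalphaKO arrays lay close together below all wild type arrays, while the ERbetaKO arrays overlapped both. The difference of ERalphaKO from wild type was -0.54 ± 0.14 (adjusted p = 0.0359), the largest absolute difference of any tested carrier there, and that from ERbetaKO was -0.45 ± 0.14 (adjusted p = 0.0426).

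The Slc25a27 difference rested on the probe set 1440090_at alone. The 3 other probe sets gave 0.21, 0.18 and 0.11 in ERalphaKO, and for 1454230_a_at ERalphaKO was higher than ERbetaKO by 0.36 ± 0.15 (unadjusted p = 0.0324). With all 4 averaged, the difference from wild type was -0.01 and that from ERbetaKO 0.01, the opposite sign. The call against wild type remained without wild type female replicate 2, wild type male replicate 3 or ERalphaKO male replicate 3 and was lost without any other single array; that against ERbetaKO remained without ERalphaKO male replicate 3, ERbetaKO female replicate 2 or ERbetaKO male replicate 3 only. The call against wild type was also lost with no filter (-0.54, adjusted p = 0.0502), on the arrays with a Pcp2 signal of 500 or more (-0.62, adjusted p = 0.0518) and with the Actb ratio in the model (-0.38, adjusted p = 0.0980), and that against ERbetaKO with median scaling (-0.34) and no filter (-0.45, adjusted p = 0.0533). None of 5 pan-neuronal markers was called in ERalphaKO against wild type (median -0.34). Between the knockout labels 1 of them was called lower in ERalphaKO (median -0.27). Of 7 forebrain neuron markers, none was called in ERalphaKO against wild type (median -0.31) and 1 was lower than in ERbetaKO (median -0.23). The pan-neuronal markers summed to 41363 to 57697 in wild type, 31091 to 44828 in ERalphaKO and 40447 to 54988 in ERbetaKO, with overlapping ranges. The part of either list in the result was not tested.

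Slc25a30, a carrier described in kidney and linked to oxidant stress, gave 395, 444 and 481 in wild type, 422, 433 and 687 in ERalphaKO, and 499, 569 and 710.5 in ERbetaKO. All ERbetaKO arrays lay above all wild type arrays, and 2 ERalphaKO arrays reached their range. The difference in ERbetaKO was 0.37 ± 0.11 (adjusted p = 0.0491). Of the 27 alternatives 21 lost this call, among them every fit without a single array except that without ERbetaKO female replicate 3, and the fit with replicate number as a block. A second probe set of similar brightness gave 0.12 ± 0.09.

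**Figure D3:**
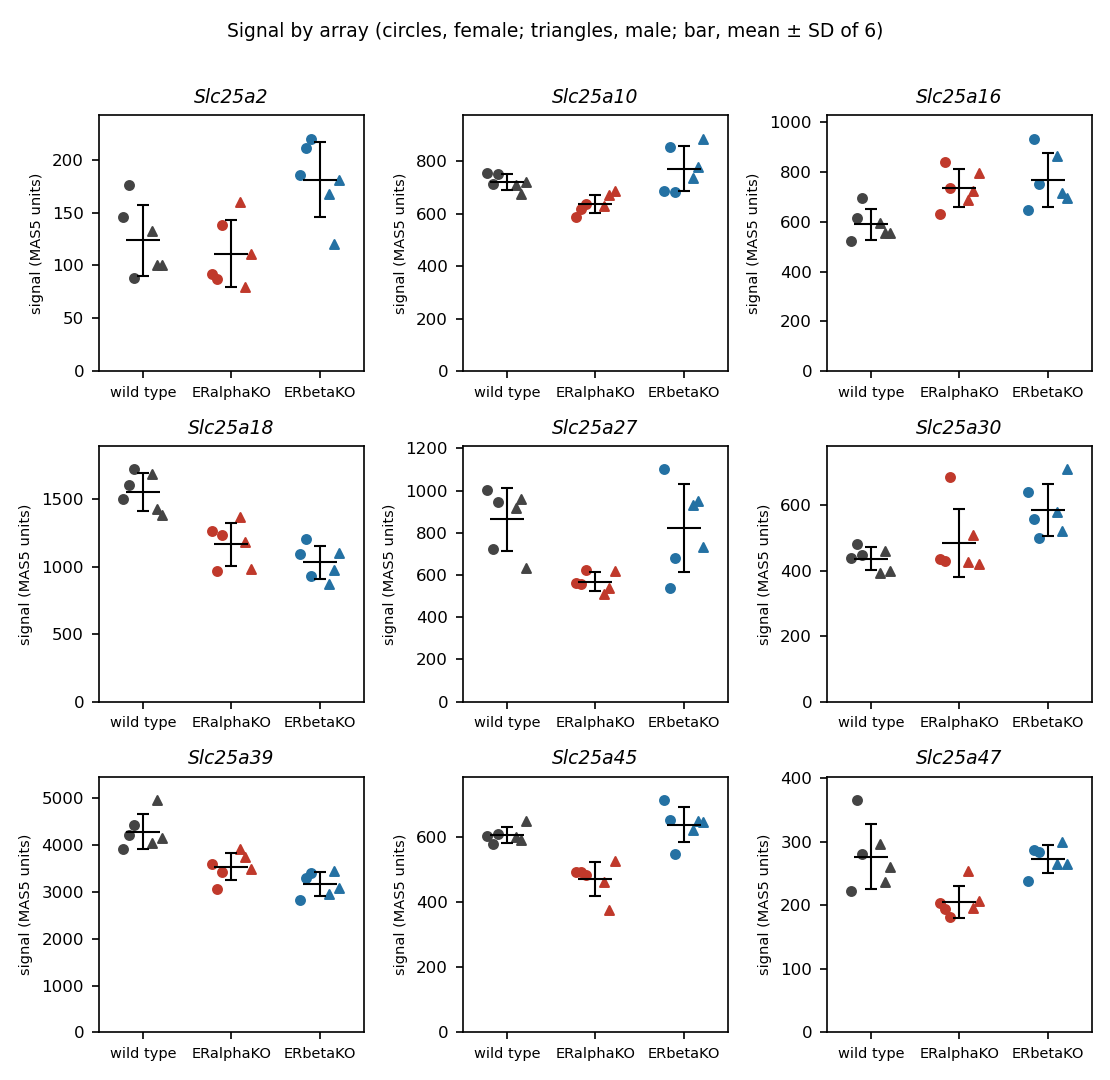
Signal in MAS5 units on each array of the 9 Slc25 genes called in any genotype comparison, with circles for females, triangles for males, and a bar for the mean ± SD of 6 arrays. Slc25a18 and Slc25a39 lie lower in both knockout-labelled groups, Slc25a45 in ERalphaKO, and Slc25a30 higher in ERbetaKO.

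Carriers of amino acids, carnitine and ornithine had 9 members, 8 of them tested. In ERalphaKO 1 fell (median -0.17), and in ERbetaKO none was called (median 0.09). All 8 lay lower in ERalphaKO than in ERbetaKO, with 3 called (median -0.26). Of all genes, 46.7% lay higher in ERalphaKO than in ERbetaKO, and 9.11% were called lower. Slc25a45, grouped by sequence with the carriers of basic amino acids, gave 577, 601 and 647 in wild type, 374, 486 and 526 in ERalphaKO, and 548, 646 and 712 in ERbetaKO. The ERalphaKO arrays lay below every array of the other genotypes. The difference was -0.33 ± 0.08 from wild type (adjusted p = 0.0221; -0.26 in females and -0.39 in males) and -0.39 ± 0.08 from ERbetaKO (adjusted p = 0.0055). The latter held in 27 of 27 alternatives. The former was lost without wild type male replicate 3, without ERalphaKO male replicate 2, with the Actb ratio as a covariate and on the arrays with a Pcp2 signal of 500 or more.

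Slc25a29, a carrier of basic amino acids, gave a difference of -0.31 ± 0.12 in ERalphaKO and was not called (adjusted p = 0.114). Slc25a2 and Slc25a47 were called only between the knockout labels, and both were dim. Slc25a2, an exchanger of ornithine and other basic amino acids, gave 88.3, 117 and 176 in wild type, 79.1, 101 and 159.6 in ERalphaKO and 121, 183 and 220.0 in ERbetaKO. The wild type range reached into both others, and the difference of ERalphaKO from ERbetaKO was -0.49 ± 0.14 (adjusted p = 0.0288). This call remained without ERalphaKO female replicate 3, ERalphaKO male replicates 1 or 3, ERbetaKO female replicate 1 or ERbetaKO male replicate 2 and was lost without any other array, with quantile normalization (-0.38), with the Actb ratio (-0.51) and on the arrays with a Pcp2 signal of 500 or more (-0.37). Slc25a47, known from liver, gave 222, 270.1 and 365 in wild type, 182, 199 and 254 in ERalphaKO, and 238, 275 and 299.8 in ERbetaKO. A single ERalphaKO array reached the ERbetaKO range. The difference was -0.32 ± 0.10 between the knockout labels (adjusted p = 0.0408) and -0.33 ± 0.10 from wild type (adjusted p = 0.0611, not called). The first was lost in 17 of 26 alternatives. It remained without ERalphaKO male replicate 1 or ERbetaKO female replicate 1 and was lost without any other single array, and also with quantile normalization (-0.25), median scaling (-0.23), no filter, the replicate block, the cerebellar score, the Actb ratio (-0.26) and on the arrays with a Pcp2 signal of 500 or more (-0.25).

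Carriers of cofactors, nucleotides and metals had 9 members, all tested. In each knockout comparison 1 fell and 8 were not called, with medians of -0.03 in ERalphaKO and -0.07 in ERbetaKO. The member that fell was Slc25a39, which takes glutathione into mitochondria. Its probe set, 1439410_x_at, gave 3913, 4179.9 and 4957 in wild type, 3064, 3536 and 3923 in ERalphaKO, and 2823, 3182 and 3443 in ERbetaKO. ERbetaKO lay wholly below wild type, and a single ERalphaKO array reached the lowest wild type value. The difference was -0.43 ± 0.07 in ERbetaKO (adjusted p = 0.0035; -0.39 in females and -0.46 in males) and -0.27 ± 0.07 in ERalphaKO (adjusted p = 0.0366). Of the 4 other probe sets of the gene, 1453111_a_at gave -0.37 ± 0.09 in ERbetaKO, and the remaining 3 lay between 0.03 and 0.12.

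The ERbetaKO call of Slc25a39 held in 26 of 27 alternatives and was lost with all 5 probe sets averaged (-0.11). The ERalphaKO call remained without wild type female replicate 1, wild type male replicate 1 or ERalphaKO female replicate 1 and was lost without any other single array, as it was with quantile normalization (-0.22), median scaling (-0.29), averaged probe sets (-0.04) and on the arrays with a Pcp2 signal of 500 or more (-0.21). Slc25a40, the relative of Slc25a39 with the same cargo, differed by -0.03 ± 0.09 and -0.07 ± 0.09 and was not called. The iron carriers Slc25a37 and Slc25a28 were not called in any comparison, with differences from wild type between -0.14 and 0.06.

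The group of mitochondrial dynamics and unsettled substrates had 5 members, 4 tested, and none was called in any comparison. It holds Slc25a46, an outer membrane protein of mitochondrial shape, which differed from wild type by -0.05 ± 0.08 and -0.04 ± 0.08. The 5 members under the filter were Slc25a13, Slc25a31, Slc25a41, Slc25a48 and Slc25a54. Slc25a31, the adenine nucleotide translocator of testis, ran from 2.82 to 41.5 over the 18 arrays, and the highest signal of any of the 5 was 142, for Slc25a48 in ERbetaKO. Genotype ranges overlapped for all 5. With no filter on low values all 44 members were tested, and none of the 5 was called in any of the 3 genotype comparisons. The smallest unadjusted p-values among the 5 were for ERalphaKO minus ERbetaKO, in Slc25a48 (-0.57 ± 0.18, unadjusted p = 0.0065) and Slc25a54 (-0.46 ± 0.16, unadjusted p = 0.0125), with signals near or below the pseudocount.

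No carrier was called for sex or for a genotype effect that differed between the sexes. The shares of all genes called were 0.0306% for females against males, and 0 for both interactions. Sex here is as labelled, and the labels were not checked against sex-linked genes. Over all genes, 2 were called higher and 2 lower in females. The female minus male differences of all genes tested, called or not, ran from -1.50 to 3.58. The interactions over all genes ran from -1.97 to 2.00 in ERalphaKO and from -1.84 to 5.02 in ERbetaKO. At an unadjusted p under 0.05 the counts were 0 for sex, 0 for ERalphaKO by sex and 1 for ERbetaKO by sex, out of 39 carriers. The smallest sex p-values were those of Slc25a12 (female minus male -0.08 ± 0.04, unadjusted p = 0.0554) and Slc25a34 (0.17 ± 0.10, unadjusted p = 0.113). Slc25a33, a carrier of pyrimidine nucleotides, had the smallest p in both interactions: its difference from wild type was 0.02 in females and -0.29 in males of ERalphaKO (interaction 0.30 ± 0.14, unadjusted p = 0.0503), and 0.09 and -0.30 in ERbetaKO (0.40 ± 0.14, unadjusted p = 0.0138). Next came Slc25a53 in ERalphaKO (0.29 ± 0.14, unadjusted p = 0.0594) and Slc25a5 in ERbetaKO (0.28 ± 0.15, unadjusted p = 0.0789). In ERalphaKO 21 of the 39 carriers lay lower than wild type in both sexes, 4 higher in both and 14 went opposite ways. In ERbetaKO these counts were 16, 10 and 13. The same counts were not made over all genes, so they are not read as particular to the carriers. On the mean of the sexes, 43.9% of all genes lay above wild type in ERalphaKO and 51.1% in ERbetaKO.

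For 23 members more than 1 probe set was on the array, 49 further probe sets in all. In ERalphaKO against wild type, 30 of the 49 had the sign opposite to that of the probe set used, and 5 of those had an unadjusted p under 0.05, as had 7 with the same sign. In ERbetaKO the counts were 22, 4 and 6, and between the knockout labels 24, 7 and 5. The probe set used for Slc25a5, 1436874_x_at, and 5 of its 7 others had differences of -0.16 to -0.37 in ERalphaKO, whereas 1438360_x_at was higher by 0.29 ± 0.09 (unadjusted p = 0.0051) and 1438922_x_at by 0.12. An x in the name marks probes that can match other transcripts, and the probe sets used for Slc25a5, for its close relative Slc25a4 (1455069_x_at) and for Slc25a39 (1439410_x_at) are all of this kind, so the values of these 3 genes are uncertain in that respect.

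For several members a second probe set gave another difference than the probe set used. For Slc25a17, the peroxisomal member of the family, 1450353_at was higher in ERbetaKO at 258 ± 43.7 against 140.1 ± 51.6 in wild type (0.68 ± 0.16, unadjusted p = 0.00054), while the probe set used gave -0.02. The second probe set of Slc25a42, 1443637_at, gave 0.60 ± 0.19 in ERbetaKO against -0.28, and that of Slc25a51, the NAD carrier, gave 0.67 ± 0.24 in ERalphaKO against -0.09; both lay under the filter. For Slc25a3, 1440302_at gave 0.32 ± 0.15 in ERalphaKO against -0.28. The probe sets of Slc25a32, 1429462_at and 1435483_x_at, gave 0.35 ± 0.15 and 0.28 ± 0.09 in ERalphaKO against -0.01, both under the filter. For Slc25a25, 1447856_x_at, under the filter, gave 0.42 ± 0.19 in ERbetaKO against -0.17, and 1454284_at gave -0.43 ± 0.15 between ERalphaKO and ERbetaKO against 0.20. Between the knockout labels 1436909_at of Slc25a44, a carrier of branched-chain amino acids, gave 0.18 ± 0.07 against -0.11, and its signal was 673 ± 67.1 in wild type, 884 ± 51.7 in ERalphaKO (0.37 ± 0.07, unadjusted p = 0.0001) and 779 ± 87.6 in ERbetaKO. Its remaining probe set, 1456465_at, named after its values were seen, gave 460 ± 41.4 in wild type, 450.2 ± 49.7 in ERalphaKO and 663 ± 76.6 in ERbetaKO. Its difference was 0.47 ± 0.08 in ERbetaKO (unadjusted p = 3.31e-05) and -0.50 ± 0.08 between ERalphaKO and ERbetaKO (unadjusted p = 1.64e-05), the smallest unadjusted p of any member probe set in these comparisons. With all probe sets averaged Slc25a44 was called higher in ERbetaKO. For Slc25a39, 1440118_at, under the filter, gave -0.17 ± 0.07 against 0.16 between the knockout labels.

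**Figure D4:**
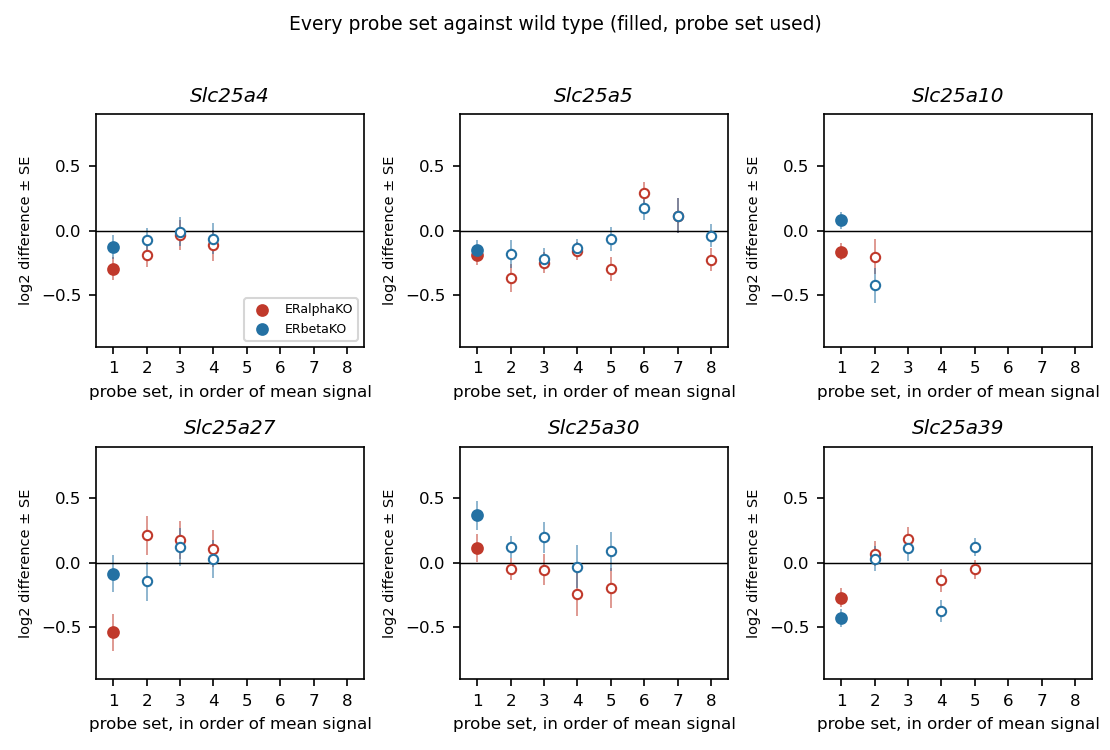
Log2 difference from wild type ± SE for every probe set of 6 Slc25 genes, in order of mean signal, for ERalphaKO (red) and ERbetaKO (blue); filled points are the probe set used. All 4 Slc25a4 probe sets lie at or below 0, while the Slc25a27 probe set used lies apart from the 3 others in ERalphaKO.

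Other genes of the pathway were taken as 4 lists of 59 genes, 52 of them tested. Against wild type 1 was higher and 4 lower in ERalphaKO, 1 higher and 4 lower in ERbetaKO, and between the knockout labels 1 was higher and 2 lower in ERalphaKO. The shares of all genes called higher and lower were 3.07% and 3.63%, 2.91% and 4.58%, and 6.27% and 9.11% in these comparisons. Of 13 genes of carrier import, Timm10b rose (0.51 ± 0.12, adjusted p = 0.0212) and Timm8a1 fell (-0.45 ± 0.11, adjusted p = 0.0213) in ERalphaKO; both encode chaperones of the intermembrane space. Timm22, the channel that inserts the carriers, was lower in ERalphaKO than in ERbetaKO (-0.41 ± 0.13, adjusted p = 0.0412). No import gene was called in ERbetaKO, where Timm13 (-0.20) and Timm10b (0.27) had the smallest p.

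Of 14 tested channels and other carriers of the mitochondrial membranes, Smdt1, a part of the calcium uniporter, fell in ERalphaKO (-0.24 ± 0.07, adjusted p = 0.0463). In ERbetaKO the sideroflexins split: Sfxn5 (-0.44 ± 0.10, adjusted p = 0.0190) and Sfxn1, a serine carrier (-0.27 ± 0.08, adjusted p = 0.0477), fell and Sfxn3 rose (0.38 ± 0.10, adjusted p = 0.0275). Sfxn3 was lower in ERalphaKO than in ERbetaKO (-0.47 ± 0.10, adjusted p = 0.0068). Of 22 shuttle and matrix enzymes, Idh2, which makes NADPH in the matrix, fell in ERalphaKO (-0.36 ± 0.09, adjusted p = 0.0244) and in ERbetaKO (-0.39 ± 0.09, adjusted p = 0.0158). Got2, the mitochondrial aminotransferase of the malate-aspartate shuttle, fell in ERalphaKO (-0.25 ± 0.07, adjusted p = 0.0378), and Acly, which splits the citrate that Slc25a1 exports, fell in ERbetaKO (-0.28 ± 0.06, adjusted p = 0.0132). Pck2 was higher in ERalphaKO than in ERbetaKO (0.34 ± 0.11, adjusted p = 0.0448). Of the carriers without an Slc25a symbol 3 were tested and none was called; Mtch1 (-0.36) and Mtch2 (-0.21) had the smallest p, in ERbetaKO.

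Array by array, Pearson correlations of all log2 levels were 0.956 to 0.985 within groups and 0.953 to 0.982 between them. The cerebellar marker Pcp2 varied widely within each genotype. Its median was 3832 in wild type (range 117 to 10790), 4000 in ERalphaKO (209 to 7263) and 802 in ERbetaKO (225 to 9849). Cerebellar markers summed to medians of 36700, 36088 and 14077 in that order. The ranges of these sums overlapped, at 10946 to 88781, 10237.5 to 57811.5 and 9433 to 81629. None of the cerebellar markers was called. Their median difference was 0.09 in ERalphaKO and -0.99 in ERbetaKO against wild type, and 1.05 between the knockout labels. Pcp2 stayed under 500 on 7 arrays and ran above it on 11 (4 wild type, 4 ERalphaKO, 3 ERbetaKO). Whether the dissected tissue differed was not tested. Among the carriers, Slc25a33 ran from 1251 to 1682 on the 7 and from 1354 to 1849 on the 11, and Slc25a26, which carries S-adenosylmethionine, from 431 to 647 and from 316 to 488; these 2 were picked after their values were seen and were not tested. Of the 3′/5′ signal ratios, signs of RNA quality, that of Gapdh overlapped between genotypes. It was 0.748 to 0.801 in wild type, 0.738 to 0.774 in ERalphaKO and 0.731 to 0.782 in ERbetaKO. That of Actb was 1.17 to 1.23 in wild type, 1.15 to 1.37 in ERalphaKO and 1.34 to 1.84 in ERbetaKO. Whether RNA quality itself differed was not tested, and only the Actb ratio placed the ERbetaKO arrays wholly above wild type. With this ratio as a covariate the carriers called numbered 2, 2 and 2 in the 3 genotype comparisons in place of 4, 4 and 5. Slc25a18 and Slc25a39 stayed called against wild type in both, and Slc25a27 and Slc25a45 between the knockout labels. Over all genes the calls then numbered 423, 122 and 756 in place of 876, 980 and 2010. Erythroid markers summed to 321 to 621, 268 to 1523 and 155 to 503 in the order wild type, ERalphaKO and ERbetaKO, muscle and brown fat markers to 691 to 851, 527 to 721 and 787 to 1544, microglial markers to 5783 to 8769, 5348 to 6586 and 5397 to 6867, and oligodendrocyte markers to 31932 to 45916, 29251 to 37714 and 27149 to 44841. Pituitary markers summed to 735 to 35755 (median 5672), 628 to 43846 (median 842) and 941 to 34292 (median 1054), with none of 5 tested called. Gh, growth hormone, was above 1000 on 4 of 6 wild type arrays and on 1 of 6 in each knockout-labelled group. Of 6 microglial markers, 2 were called lower in ERalphaKO and 1 in ERbetaKO. Between the knockout labels 1 of the 6 was higher and 1 lower. Of 2 tested muscle and brown fat markers, 1 was called higher in ERbetaKO, and 2 were lower in ERalphaKO than in ERbetaKO. The 1 tested erythroid marker was called higher in ERalphaKO than in ERbetaKO only, and none of 5 oligodendrocyte markers was called. The part of these lists in the carriers' differences was not tested.

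The number of carriers called moved with single arrays. For ERalphaKO against wild type it was 0 without ERalphaKO male replicate 2, 1 without wild type female replicate 3 or ERalphaKO female replicate 2, and 2 without any wild type male, ERalphaKO female replicate 3 or ERalphaKO male replicate 1. For ERbetaKO it was 2 without wild type female replicate 1, any wild type male, ERbetaKO female replicate 2 or ERbetaKO male replicates 1 or 2, and the 2 were then Slc25a18 and Slc25a39. Between the knockout labels it was 1 without ERalphaKO female replicate 1 and 2 or 3 without ERalphaKO female replicate 2, ERalphaKO male replicates 1 or 2, ERbetaKO female replicates 2 or 3, or any ERbetaKO male. Slc25a45 was called in each of those. Over all genes the full fit called 876, 980 and 2010 in the 3 comparisons. Without single arrays these numbers ran from 396 to 777, 500 to 1002 and 1183 to 2248.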

How the data were processed

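The data are 18 Affymetrix Mouse 430 2.0 arrays of whole brain. The deposited values are probe set signals, an intensity on a linear scale, made with MAS5 per the submitters' processing notes. Each array's 2% trimmed mean is 500.002, so the arrays were scaled alike before deposit. Of 45101 probe sets, 64 controls were left out; 34945 had 1 gene symbol in the platform annotation, 932 several and 9160 none. Symbols were updated through RefSeq by gene ID for 34741 probe sets and by symbol for 143, and 61 were kept.

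The deposited intensities were turned into log2(signal + 63.6), the pseudocount being their 25th percentile. The probe set with the highest mean stood for each gene. Genes under the 40th percentile of mean level (7.58) were left out, which left 13072 of 18193. A model of 6 group means (genotype by sex, 3 arrays each, 12 residual degrees of freedom) was fitted in R 4.3.3 by limma 3.58.1, the prior variance following mean intensity, and p-values were adjusted by Benjamini-Hochberg over all genes tested. The fit was tested on simulated data. Figures used matplotlib 3.10.9 in Python 3.11.15.

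Members are probe sets with a single symbol beginning with Slc25a; 1 further probe set with several symbols was not used. Described in full are the carriers called in a genotype comparison, the 3 with the largest difference in each, 7 named in any case (Slc25a3, Slc25a4, Slc25a5, Slc25a12, Slc25a22, Slc25a25, Slc25a27), those with the smallest sex or interaction p, and those whose probe sets disagreed at an unadjusted p under 0.05. Pathway genes named are those called, or otherwise those with the smallest p. The members, lists and rules were chosen with earlier results of these data known. Deviations of same-numbered arrays correlated at -0.49 to 0.49 (45 pairs, median 0.02, 14 over 0.1). Some replicate 3 arrays deviated together, among them ERalphaKO male with wild type female (0.49) and with ERbetaKO female (0.47). Others ran against each other, such as ERalphaKO female with ERalphaKO male replicate 3 (-0.49). With signs mixed, the numbers were not taken as pairs in the main fit, and replicate number was a block in an alternative. Alternatives changed the pseudocount, scaling, filter, probe set choice, variance model, covariates, arrays and groups fitted. For arrays, the number of arrays limits the precision; signals carry no read depth. Promoter sequences came from a RefSeq table of GRCm38.p6, while the array annotation names no build.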

Additional observations from a re-analysis of the deposited data

Results flagged for a closer look

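In 44 carriers and 3 genotypes, 132 sets of 6 arrays, 5 sets had a highest or lowest array whose gap to the nearest other, as a share of the whole range, passed Dixon's 95% critical value for 6 samples; chance gives about 1 in 20 sets. Slc25a30 reached 687 on ERalphaKO female replicate 3, with the other 5 arrays between 422 and 510. Slc25a47 reached 254 on ERalphaKO male replicate 1, with the others between 182 and 207. Slc25a25 was low on 2 arrays, 836 on ERalphaKO female replicate 2 against 1064 to 1159 on the others, and 699 on ERbetaKO male replicate 1 against 917 to 999. Slc25a13, under the filter, was 33.0 on ERalphaKO female replicate 2 against 37.5 to 40.1 on the others.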

How the results depend on the processing

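Across 33 alternative settings, 34 results, each the difference of 1 carrier in 1 comparison, gave 915 values. Of these, 757 kept their direction and side of the threshold, 117 lost their call, 11 gained one and 30 changed sign. All 30 sign changes were in carriers not called, except Slc25a27 between the knockout labels. For the numbers of carriers called, the settings named below, single arrays aside, moved the number by more than 1.5 times. The cause was not tested. The number of carriers called in ERalphaKO against wild type (4) was 2 with averaged probe sets, 7 with array weights, 7 with the cerebellar score as a covariate, 0 on the arrays with a Pcp2 signal of 500 or more (where 7 had an unadjusted p under 0.05 in limma), 2 with the Actb ratio as a covariate, 7 with only the groups compared, and 0 to 4 without single arrays. In ERbetaKO (4) it was 2 with no filter, 7 with the cerebellar score, 2 on the Pcp2 arrays, 2 with the Actb ratio and 2 to 4 without single arrays. Between the knockout labels (5) it was 3 with median scaling, 3 with no filter, 3 with the filter at the 60th percentile, 3 with averaged probe sets, 8 with array weights, 3 on the Pcp2 arrays, 2 with the Actb ratio and 1 to 4 without single arrays. With replicate number as a block the counts were 4, 3 and 4. Slc25a30 and Slc25a47 lost their calls and no other carrier did. Over all genes, 876 were called in ERalphaKO, and 644, 1559, 1493, 75, 423 and 929 in the settings in the order named. In ERbetaKO 980 were called, and 856, 1368, 235 and 122 in that order. Between the knockout labels 2010 were called, and 2426, 2018, 1361, 1564, 3827, 1459 and 756. The block gave 730, 852 and 1827. The genes tested numbered 9906 to 18193 by setting. Sex and both interactions gave 0 carriers called in every setting run. Signs changed as follows in ERalphaKO against wild type: Slc25a3 to 0.024 with quantile normalization and 0.018 with averaged probe sets, Slc25a12 to -0.0045 with averaged probe sets, and Slc25a25 to -0.062 on the Pcp2 arrays, with -0.056 to 0.097 without single arrays. In ERbetaKO against wild type Slc25a3 turned to 0.0070 with quantile normalization, 0.030 with averaged probe sets, 0.14 on the Pcp2 arrays and 0.099 with the Actb ratio, Slc25a4 to 0.084 on the Pcp2 arrays and 0.000324 with the Actb ratio, Slc25a12 to -0.083 with median scaling and -0.039 with averaged probe sets, Slc25a25 to 0.17 with averaged probe sets, and Slc25a27 to 0.095 on the Pcp2 arrays, 0.43 with the Actb ratio and -0.22 to 0.023 without single arrays. Between the knockout labels quantile normalization turned Slc25a3 to 0.017, Slc25a4 to 0.020 and Slc25a5 to 0.028, median scaling turned Slc25a5 to 0.079, Slc25a12 to 0.086 and Slc25a22 to 0.081, averaged probe sets turned Slc25a27 to 0.0097, Slc25a12 to 0.034 and Slc25a25 to -0.11, and without single arrays Slc25a22 ranged from -0.090 to 0.025 and Slc25a5 from -0.083 to 0.012. Dim carriers (Slc25a2, Slc25a24, Slc25a32, Slc25a35) had signals near the pseudocount, which limits the size of any difference shown.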
